A study of Homo sapiens with 6 samples.

Results

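The 37 genes of the human mitochondrial genome were measured in U251, an established cell line from a human astrocytic glioma. Treated cells had been exposed for 24 h to 6-shogaol, a pungent compound of dried ginger. The labelled dose was 60, with the unit written as "μm". The set was taken as every row of the deposited expression table whose gene name begins with MT-, which gave 13 mRNAs, 2 rRNAs and 22 tRNAs among 60612 genes in all. Both groups were labelled as wild type and held 3 bulk RNA-seq libraries each, control and 6-shogaol, prepared with an mRNA library kit from total RNA. Nothing in the labels says that the replicates came from separate cultures, and the p-values then measure only the spread among the 6 libraries, part or all of which may be technical.

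Mitochondria keep a small circular genome whose mRNAs all encode core subunits of the oxidative phosphorylation machinery. Both strands are transcribed into long polycistronic RNAs, from which the rRNAs and mRNAs are released largely by cutting out the tRNAs that lie between them. Most genes are read from the heavy strand, and these are annotated as + (28 members). The light strand gives MT-ND6 and 8 tRNAs, which are annotated as - (9 members). Glioma cells use this machinery beside glycolysis to make ATP.

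Library totals ran from 43516840 to 60018999 counts, and all 37 members passed the filter on low counts. A treated library stood apart. 6-shogaol replicate 1 had the lowest value of the 6 libraries for 23 of 37 members and 11 of 13 mRNAs, while it was the lowest for 16.8% of all 19279 genes tested. It also held the single discordant MT-ATP6 value described further on. Some results that rest on it are given with and without it, and the others only with it. Of 8 glioma and astrocytic markers, 7 were tested, and their summed FPKM (fragments scaled to gene length and library size) was 1358 to 1383 in controls and 1148 to 1801 with 6-shogaol. GFAP, an astrocytic filament gene, was present and was called lower by edgeR, as was NES. GFAP had 27.3 ± 5.73 CPM in controls and 8.88 ± 0.424 CPM with 6-shogaol (SD, n = 3). CPM are counts scaled to library size and not to gene length. Of the 7 tested markers, 5 had a log2 fold change below 0 and 2 above. At an unadjusted p under 0.05, 3 were lower and 1 higher in edgeR. DESeq2 called 3 lower and 0 higher, and limma 1 lower and 0 higher. Of 10 leukocyte, endothelial and epithelial markers, 5 were tested, CD3E had no counts, and the summed FPKM was at most 11.1, 0.376 and 0.221 for these cell types. edgeR called only the endothelial gene CDH5 (lower), and DESeq2 also called CD68, a gene of macrophages and other cells, higher (13.8 ± 1.01 CPM in controls and 23.0 ± 6.59 CPM with 6-shogaol, n = 3). The part of these marker changes in the results was not tested.

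Mitochondrially encoded genes took 8.34% to 10.7% of the counts, and no difference between the groups passed a test. Their share of all counts was 10.7%, 10.5% and 9.81% in control replicates 1, 2 and 3 and 8.34%, 10.5% and 9.75% with 6-shogaol. The groups overlapped, and replicate 1 of the treated group was the low one. The difference of the means was -0.815 percentage points (two-sided exact permutation test, p = 0.3, adjusted over 4 such values 0.40), where 3 libraries against 3 cannot give less than 0.1. Without 6-shogaol replicate 1 the difference was -0.216 points. Taken over FPKM in place of counts, which weights genes by length, it was -2.32 points (two-sided exact permutation test, p = 0.1, the smallest possible). In bulk RNA, fewer cells of a type rich in mitochondrial RNA cannot be told apart from less such RNA per cell. The mRNAs took 6.12% to 7.87% of counts, the 2 rRNAs 2.16% to 2.96% and the 22 tRNAs 0.0626% to 0.0722%.

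In the test over all genes, 2 members fell with 6-shogaol, the tRNA genes MT-TW and MT-TV, and no member rose. Over all 19279 genes, edgeR's quasi-likelihood test called 1.71% lower and 1.67% higher (Benjamini-Hochberg adjusted p under 0.05). At an unadjusted p under 0.05 there were 10 members lower and 0 higher, against 9.95% and 10.4% of all genes. DESeq2 called 9 members lower and 0 higher (5.46% and 5.31% of the genes it tested), and limma on log2(FPKM + 1) called 3 lower and 0 higher (2.51% and 3.53%). The median log2 fold change of the 37 members was -0.09, with 27 below 0, and that of all genes tested was 0.00. This lean rested in part on 1 library. Without 6-shogaol replicate 1 several of the 27 lay above 0, among them MT-RNR2 (0.07), MT-CO2 (0.11) and MT-ND4 (0.12). Others stayed below 0, such as MT-TW (-0.85) and MT-ND1 (-0.27). For 10 members all treated libraries lay below all controls, while 13.9% of all genes tested did, and for 0 members they lay above, against 14.0%. No call survived the loss of every single library. Of the 6 fits that each left out 1 library, MT-TW was called in the fits without 6-shogaol replicate 1 or 3 and MT-TV in none. Over all genes these fits called 0.38%, 0.27% and 0.445% lower when control 1, 2 or 3 was left out, and 2.67%, 0.462% and 0.475% when treated library 1, 2 or 3 was. With no filter on low counts only MT-TW was called (0.609% of all genes lower), and with the replicate number as a block no member was (0.0%). The calls of MT-TW and MT-TV held with RLE, upper-quartile and nuclear-gene scaling (1.75%, 1.85% and 1.7%), with a minimum of 1 CPM (2.94%), and in limma with a pseudocount of 0.1 or no filter (2.39% and 0.369%).

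**Figure D1:**
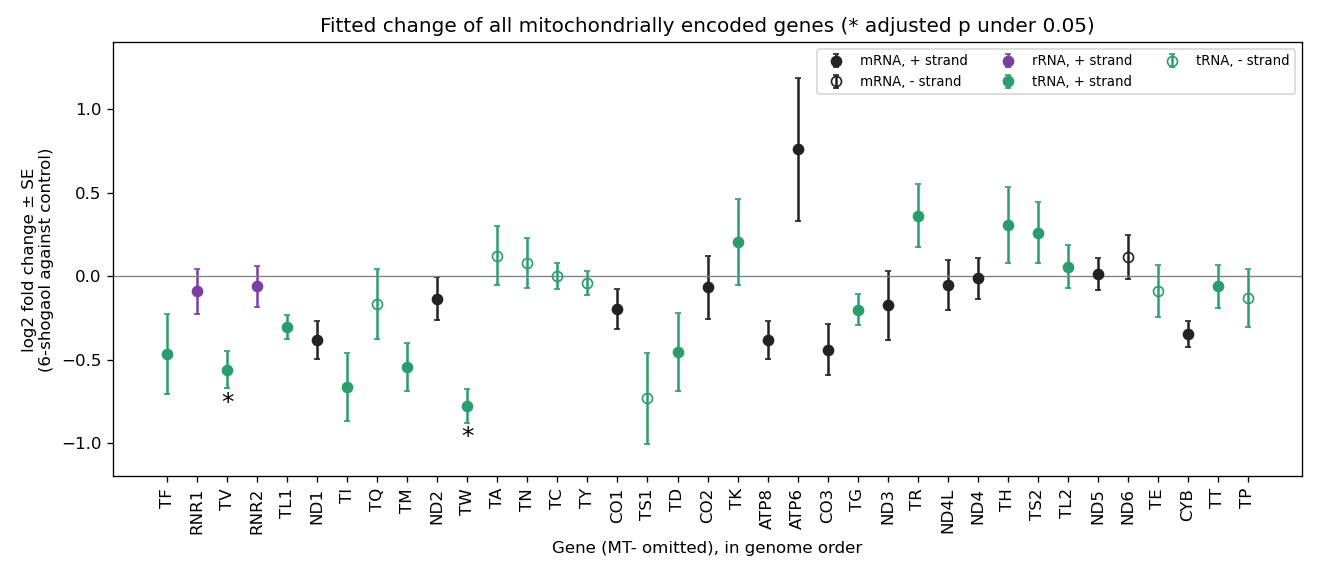
Fitted log2 fold change (6-shogaol against control, vertical axis) of each of the 37 members in genome order, with bars of 1 standard error, filled points for the + strand and open points for the - strand. The asterisks mark MT-TV at -0.56 and MT-TW at -0.78, and the wide bar belongs to MT-ATP6 at 0.76.

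The tRNA genes that fell are printed here from GENCODE release 29 (5′ to 3′ in DNA letters, GRCh38), with the anticodon in capitals. MT-TW encodes the tRNA for tryptophan (chromosome MT, 5512 to 5579, + strand), and its anticodon also reads the codon that is a stop in the nuclear code. MT-TV encodes the tRNA for valine (1602 to 1670, + strand), which lies between the rRNA genes and is also built into the mitochondrial ribosome as a structural RNA.
MT-TW: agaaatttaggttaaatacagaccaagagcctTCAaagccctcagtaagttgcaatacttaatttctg
MT-TV: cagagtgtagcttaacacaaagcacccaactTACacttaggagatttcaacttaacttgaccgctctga

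In control replicates 1, 2 and 3, MT-TW had 26.9, 28.0 and 28.2 CPM, and the treated libraries, in the same order, had 17.7, 16.2 and 14.5 CPM. All treated libraries were below all controls, and the means were 27.7 ± 0.680 and 16.1 ± 1.57 CPM (SD, n = 3). MT-TW fell by 0.78 on the log2 scale (SE 0.10, edgeR adjusted p = 0.0137). MT-TV stood at 14.8, 13.9 and 15.3 CPM in the controls and at 9.03, 10.7 and 10.0 CPM with 6-shogaol, again with no overlap. Its log2 fold change was -0.56 (SE 0.11, edgeR adjusted p = 0.0461).

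Relative to the longer RNAs beside them, both tRNAs were lower in every treated library than in every control. Per 1000 counts of the adjoining MT-ND2, MT-TW had 5.64, 5.72 and 6.53 counts in controls and 5.18, 3.35 and 3.24 with 6-shogaol. Replicate 1 of the treated group lay closest to the controls on this ratio. Per 1000 counts of MT-RNR1 and MT-RNR2 together, MT-TV had 0.524, 0.505 and 0.598 counts in controls and 0.428, 0.359 and 0.374 with 6-shogaol. Other such ratios did not follow. Per 1000 counts of neighbours, MT-TM (against MT-ND2) had 1.79, 1.36 and 1.11 counts with 6-shogaol and 1.760 to 1.996 in controls, and MT-TL1 (against MT-RNR2 and MT-ND1) had 1.83, 1.37 and 1.47 against 1.63 to 1.96, both with overlap. The sum of MT-TA, MT-TN, MT-TC and MT-TY against MT-ND2 and MT-CO1 was higher in every treated library, at 17.0 to 20.7 against 15.1 to 16.8. MT-TH, MT-TS2 and MT-TL2 against MT-ND4 and MT-ND5 gave 6.90, 4.45 and 7.48 with 6-shogaol and 5.24 to 5.68 in controls. All 6 ratios were chosen after the values were seen and carry no test. Counts on tRNA genes can come from mature tRNA, from uncut precursors or from reads that only reach into the gene, which the counts do not separate.

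Other tRNAs lay below the controls without passing the test, and are named here after their values were seen. MT-TL1, the leucine tRNA after MT-RNR2, had 49.8, 50.7 and 54.1 CPM in controls and 40.7, 43.0 and 41.4 CPM with 6-shogaol (log2 fold change -0.31, edgeR adjusted p = 0.0693). MT-TM, the methionine tRNA used to start and extend chains, had 8.61, 8.60 and 8.63 CPM in controls and 6.11, 6.60 and 4.98 CPM with 6-shogaol (-0.55, edgeR adjusted p = 0.0910). MT-TI, the isoleucine tRNA, ran from 35.3 to 54.3 CPM in controls and from 22.4 to 33.1 CPM with 6-shogaol (-0.66, edgeR adjusted p = 0.128). None of these overlapped between groups, and DESeq2 called all 3 lower. MT-TG and MT-TS1 also showed no overlap, at -0.20 and -0.73 on the log2 scale, the latter from no more than 116 counts in any library (edgeR adjusted p = 0.277 and 0.193). Of all genes tested, 13.9% had all treated libraries below all controls, and DESeq2 called 5.46% of the genes it tested lower.

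A set of 4 heavy-strand tRNAs around MT-ND4, also picked after the values were seen, was highest in 6-shogaol replicate 3. They are MT-TR for arginine (10405 to 10469), which precedes MT-ND4L, and MT-TH, MT-TS2 and MT-TL2 for histidine, serine and leucine, which lie end to end between MT-ND4 and MT-ND5 (12138 to 12336). Their sequences, with the anticodon in capitals as above, are given to show that these are separate genes. How alike the sequences are was not measured.
MT-TR: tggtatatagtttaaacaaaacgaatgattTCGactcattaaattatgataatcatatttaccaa
MT-TH: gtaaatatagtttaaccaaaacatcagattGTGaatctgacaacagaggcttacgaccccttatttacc
MT-TS2: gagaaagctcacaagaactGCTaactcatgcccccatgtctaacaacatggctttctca
MT-TL2: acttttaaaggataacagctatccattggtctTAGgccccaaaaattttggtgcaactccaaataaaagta

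MT-TH had 28.3, 23.8 and 21.6 CPM in controls and 25.7, 23.7 and 41.8 CPM with 6-shogaol, and MT-TR had 19.8, 17.4 and 17.4 CPM and 18.4, 21.3 and 30.5 CPM. The third treated library was 1.70 times the mean of the other 5 for MT-TH, 1.62 times for MT-TR, 1.51 times for MT-TS2 and 1.27 times for MT-TL2. MT-TK, the lysine tRNA ahead of MT-ATP8, was also highest there, at 1.52 times. None of the 5 passed the test (log2 fold changes from 0.06 to 0.36, the smallest edgeR adjusted p = 0.338 for MT-TR). The mRNAs beside MT-TR, MT-TH, MT-TS2 and MT-TL2 lay closer to the other libraries. MT-ND4 was also highest in that library, but at only 1.12 times the mean of the other 5. MT-ND3, MT-ND4L and MT-ND5 stood at 1.06, 1.07 and 0.976 times.

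The 4 tRNA genes with the highest mean counts over the 6 libraries were on the light strand, as was the lowest, MT-TS1. MT-TN, MT-TC, MT-TY and MT-TA, for asparagine, cysteine, tyrosine and alanine, lie in a cluster opposite the spacer between MT-ND2 and MT-CO1 and together took 42.9% to 52.3% of the tRNA counts of a library. MT-TN had 99.4, 118 and 90.0 CPM in controls and 92.5, 130.0 and 102 CPM with 6-shogaol. MT-TC was nearly level, with means of 95.0 ± 2.05 and 95.0 ± 7.62 CPM (n = 3). Of the 8 light-strand tRNAs edgeR called 0, with 1 lower at an unadjusted p under 0.05 (MT-TS1) and 0 in DESeq2 and limma, and their median log2 fold change was -0.06. The 14 heavy-strand tRNAs had a median of -0.25, with 2 called lower. Over all genes tested, edgeR called 1.71% lower, and 9.95% were lower at an unadjusted p under 0.05. The strand setting of the counting was not given in the sources used here, so light-strand tRNA counts cannot be told apart from heavy-strand precursor RNA that covers the same bases. The remaining tRNAs, MT-TF, MT-TQ, MT-TD, MT-TE, MT-TT and MT-TP, had log2 fold changes between -0.47 and -0.06, and none passed.

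**Figure D2:**
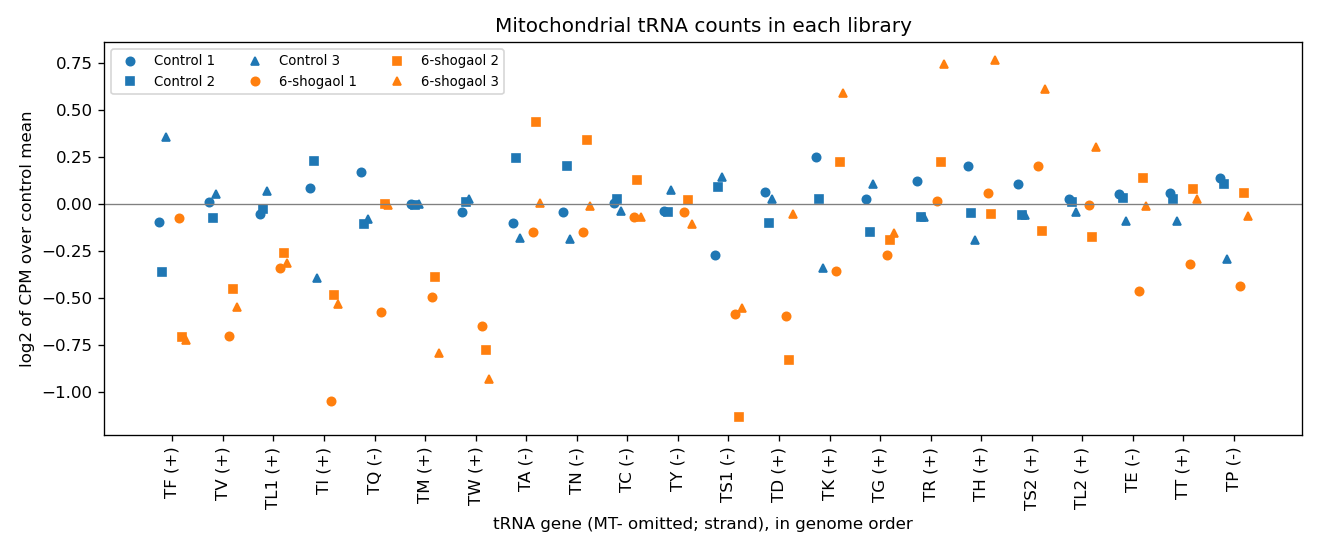
CPM of each of the 22 tRNA genes in each library, as log2 of the value over the control mean (vertical axis), in genome order with the strand in brackets. The treated libraries of MT-TW and MT-TV lie below all their controls, and 6-shogaol replicate 3 (orange triangles) lies apart at MT-TR, MT-TH and MT-TS2.

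MT-ATP6, the mRNA of the proton channel subunit a of ATP synthase, was about 3 times higher in 1 treated library and level in the other 5. The controls had 1690.0, 1708 and 1570.0 CPM, and the treated libraries 5099, 1691 and 1621 CPM. Replicate 1 of the treated group was alone in this, at 3.08 times the mean of the other treated libraries. The log2 fold change was 0.76 (SE 0.43, edgeR adjusted p = 0.380), and without that library it was 0.00029 (edgeR adjusted p = 0.998), so no effect of treatment on MT-ATP6 was detected. MT-ATP6 took 2.13%, 2.20% and 2.18% of the mRNA counts of the mitochondrial genome in controls and 8.53%, 2.24% and 2.32% with 6-shogaol. The treated libraries were the 3 highest (two-sided exact permutation test, p = 0.1, the smallest possible, adjusted over 4 values 0.20), but the difference of 2.19 percentage points was 0.107 points without replicate 1.

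MT-ATP8 and MT-ATP6 are translated from 1 mRNA, and their reading frames share bases. MT-ATP8 (8366 to 8572) ends inside MT-ATP6 (8527 to 9207), which in turn shares its last base with MT-CO3 (9207 to 9990), all on the + strand. The stretch from 8507 to 8592 of chromosome MT, + strand (GRCh38, from GENCODE release 29 transcripts), is shown because reads over it can be assigned to either gene. Capitals mark the 46 shared bases, with 20 bases on each side.
MT-ATP8/MT-ATP6: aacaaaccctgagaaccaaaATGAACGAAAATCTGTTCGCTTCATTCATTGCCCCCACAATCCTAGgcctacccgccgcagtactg

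Levels per length differed widely between these reading frames. MT-ATP8 over MT-ATP6 in FPKM was 8.15, 8.87 and 11.8 in controls and 2.56, 6.97 and 7.05 with 6-shogaol. MT-ATP8, which encodes a small membrane subunit of ATP synthase, had 4185, 4607 and 5609.7 CPM in controls and 3966, 3585 and 3473 CPM with 6-shogaol. Its groups did not overlap, but it did not pass the test (log2 fold change -0.39, SE 0.11, edgeR adjusted p = 0.119). In replicate 1 of the treated group MT-ATP8 was within the spread of the other libraries. It stood at 1.12 times the mean of the other treated libraries, against 3.08 times for MT-ATP6. Of the 13 mRNAs, 11 had their lowest value in that library, and MT-ATP8 and MT-ATP6 did not. Of the mRNA counts without MT-ATP6, MT-ATP8 took 7.25% there, and 4.85% and 5.08% in the other treated libraries. Its share in controls was 5.39% to 7.97%.

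MT-ATP8 and MT-ATP6 together came to 5875, 6315 and 7179.7 CPM in controls and 9065, 5275 and 5094 CPM with 6-shogaol. This sum was highest in replicate 1 of the treated group, at 1.52 times the mean of the other 5 libraries. With MT-CO3 added, the sum was 15946, 15394 and 14707 CPM in controls and 14390.4, 12847 and 11848 CPM with 6-shogaol, and that library lay among the others. MT-CO3 had 5325 CPM there, its lowest value, against 6754 to 10071 CPM in the other 5 libraries, as was the case for 11 of 13 mRNAs. MTATP6P1, a copy of MT-ATP6 in the nuclear genome (chromosome 1, 633696 to 634376), is identical at 671 of 681 bases in the same transcripts. It held 1286, 1172 and 1023 CPM in controls and 777, 1373 and 1213 CPM with 6-shogaol. MT-ATP6 and MTATP6P1 together came to 5876 CPM in replicate 1 of the treated group and 2593 to 3064 CPM in the other 5 libraries. Of 10320 genes averaging 10 CPM or more, 10 had more than 2 times the highest other value in this library. MT-ATP6 was second by that ratio, at 2.99, and no other member was among them. The corresponding numbers for the other 5 libraries were 2 to 6. How reads were assigned to overlapping genes and to nuclear copies was not given in the sources used here, and its part in the MT-ATP6 value was not tested.

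**Figure D3:**
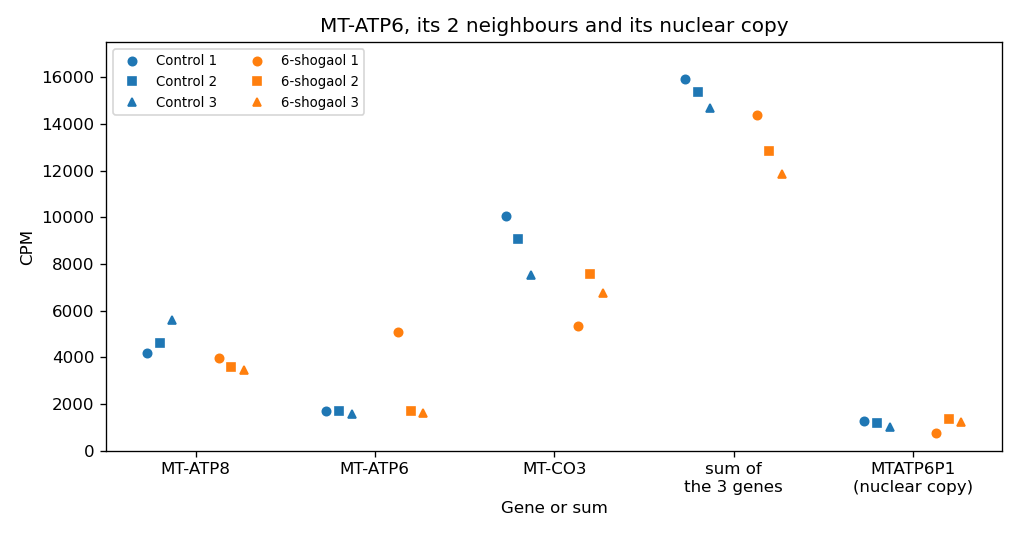
CPM (vertical axis, from 0) of MT-ATP8, MT-ATP6, MT-CO3, the sum of these genes and the nuclear copy MTATP6P1 in each library. 6-shogaol replicate 1 stands at 5099 CPM for MT-ATP6 against 1570.0 to 1708 CPM elsewhere. It lies among the other libraries for the sum of the 3 genes, in which its low MT-CO3 value is included, while MT-ATP8 and MT-ATP6 alone sum to 9065 CPM there against 5094 to 7179.7 CPM elsewhere.

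Of the 13 mRNAs edgeR called 0, with 4 lower and 0 higher at an unadjusted p under 0.05. DESeq2 called 4 lower and 0 higher, and limma called 0. Over all genes tested, 9.95% were lower and 10.4% higher at the unadjusted threshold. DESeq2 called 5.46% of the genes it tested lower and 5.31% higher. Without MT-ATP6 the median log2 fold change was -0.16, with 10 of 12 below 0. Of these 10, MT-ND2, MT-ND3, MT-ND4L, MT-CO2 and MT-ND4 lay above 0 without 6-shogaol replicate 1, at 0.00073 to 0.12. MT-ND1, MT-CO1, MT-ATP8, MT-CO3 and MT-CYB stayed below 0, at -0.44 to -0.075. MT-CYB, the cytochrome b of complex III, came closest to a call in edgeR. It stood at 7206, 7019 and 8006 CPM in controls and at 5524, 6294 and 5663 CPM with 6-shogaol, with no overlap (log2 fold change -0.35, SE 0.08, edgeR adjusted p = 0.0622). DESeq2 called MT-CYB, MT-ND1, MT-CO3 and MT-ATP8 lower.

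The 7 complex I mRNAs, which encode membrane subunits of NADH dehydrogenase, had log2 fold changes from -0.38 to 0.11. MT-ND1, at the low end, had 5092, 4994 and 4469 CPM in controls and 3113, 4146 and 3891 CPM with 6-shogaol, with no overlap (SE 0.11, edgeR adjusted p = 0.118). Part of that distance lay in 1 library, since the log2 fold change was -0.27 without 6-shogaol replicate 1. MT-ND2 had 4775, 4888 and 4326 CPM in controls and 3417, 4845 and 4482 CPM with 6-shogaol, and MT-ND3 had 1737, 1610.0 and 1229.5 CPM and 960.1, 1581 and 1510.0 CPM. For both of these only replicate 1 lay below the controls.

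The later genes of complex I were closer to level. MT-ND4 had 9924, 9733 and 9274 CPM in controls and 7639, 10452 and 10558 CPM with 6-shogaol, and MT-ND4L, which overlaps it by 7 bases on the same mRNA, had 2534, 2454 and 2098 CPM and 1769.6, 2606 and 2456 CPM. Treated replicates 2 and 3 were above all controls for MT-ND4 and among or above them for MT-ND4L, and replicate 1 was below all controls for both. In FPKM, MT-ND4L over MT-ND4 ran only from 1.05 to 1.18, unlike the overlapping ATP synthase pair. MT-ND5 had 5540.3, 5580.0 and 5365 CPM in controls and 4864, 6335 and 5405 CPM with 6-shogaol (log2 fold change 0.01). MT-ND6, the light-strand mRNA, had 1821, 1969 and 1779 CPM in controls and 1592, 2278 and 2161 CPM with 6-shogaol (0.11, edgeR adjusted p = 0.692). Replicate 1 of the treated group was again lowest. As for the light-strand tRNAs, MT-ND6 counts cannot be told apart from heavy-strand RNA over the same bases, since the strand setting was not given.

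The 3 mRNAs of cytochrome c oxidase (complex IV) encode its catalytic core. MT-CO1 had 15504, 15289 and 13929 CPM in controls and 10713, 14837 and 13452 CPM with 6-shogaol (log2 fold change -0.20, edgeR adjusted p = 0.412). MT-CO2 had 9308, 8675 and 6796 CPM in controls and 5819.5, 9319 and 8524 CPM with 6-shogaol (-0.07), so its controls and treated libraries were thoroughly mixed. MT-CO3 had 10071, 9079.7 and 7527 CPM in controls and 5325, 7571 and 6754 CPM with 6-shogaol (-0.44, SE 0.15, edgeR adjusted p = 0.163). The 2 groups of MT-CO3 overlapped only through control replicate 3 and 6-shogaol replicate 2. Without 6-shogaol replicate 1 the log2 fold changes of MT-CO1, MT-CO2 and MT-CO3 were -0.075, 0.11 and -0.31.

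The rRNAs of the mitochondrial ribosome overlapped between groups and did not pass the test. MT-RNR2, the large subunit rRNA and the most abundant member by counts, had 25393, 24985 and 23208 CPM in controls and 19131, 27167 and 24276 CPM with 6-shogaol (log2 fold change -0.06, edgeR adjusted p = 0.838). MT-RNR1, the small subunit rRNA, had 2874, 2597 and 2279.6 CPM in controls and 1986, 2713 and 2575 CPM with 6-shogaol (-0.09). Together they took 26.1%, 26.0% and 26.0% of mitochondrial counts in controls and 25.9%, 28.2% and 27.5% in the treated libraries (exact permutation test, two-sided, p = 0.4, the smallest possible being 0.1, adjusted over 4 values 0.40). The difference of the means was 1.17 percentage points, and without 6-shogaol replicate 1 it was 1.82 points (exact permutation test, two-sided, p = 0.1, the smallest possible). It was 0.690 points without 6-shogaol replicate 2. Per length MT-RNR2 exceeded MT-RNR1 by 5.41 to 6.23 times in FPKM, although both come from the start of the heavy-strand transcript.

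Per length, the mRNAs spanned a wide range of levels in controls. In FPKM, the control means ran from 19492 ± 3121 for MT-ATP8 through 10135 ± 1537 for MT-CO2, 9520.2 ± 1313 for MT-CO3 and 8118 ± 406 for MT-CO1 to 2547 ± 34.1 for MT-ND5 and 2042 ± 77.3 for MT-ATP6 (SD, n = 3). Between these lay MT-ND4L, MT-ND4, MT-CYB, MT-ND1, MT-ND2, MT-ND3 and MT-ND6, in falling order from 6676 ± 610.1 to 2969.7 ± 144. The order of neighbours differed between control libraries for MT-ND4 and MT-CYB and for MT-ND2 and MT-ND3. Every other pair of neighbouring mRNAs kept its order in all 3 controls, although the ranges of MT-CO2 and MT-CO3, MT-CO3 and MT-CO1, MT-ND4L and MT-ND4, and MT-ND3 and MT-ND6 overlapped.

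**Figure D4:**
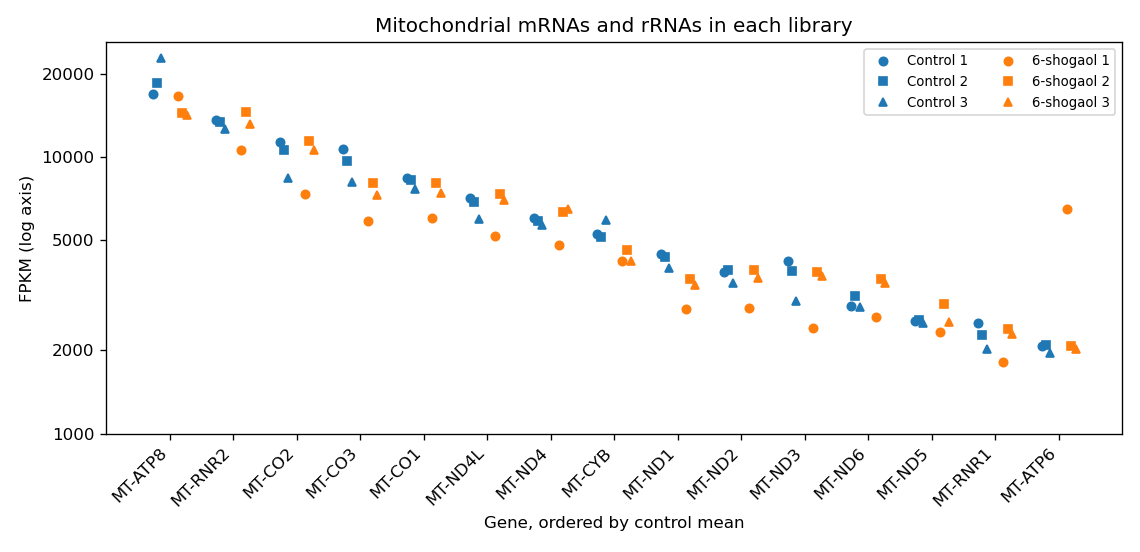
FPKM (log axis) of the 13 mRNAs and 2 rRNAs in each library, ordered by control mean. Controls are blue and 6-shogaol libraries orange, with the shape giving the replicate; 6-shogaol replicate 1 (orange circle) is lowest for most genes and far above the rest at MT-ATP6.

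For 5 of 12 mRNAs the share of the mRNA counts did not overlap between groups, 2 below the controls and 3 above. In CPM, 3 of 12 mRNAs lay wholly below their controls and 0 wholly above, beside 13.9% and 14.0% of all genes tested. These CPM percentages are not a baseline for shares of the mRNA counts, for which none was computed. To keep the MT-ATP6 value of 1 library out of the comparison, shares were taken over the other 12 mRNAs. MT-ND1 took 6.55%, 6.58% and 6.35% of these counts in controls and 5.69%, 5.61% and 5.69% with 6-shogaol. MT-CO3 took 12.96%, 11.96% and 10.69% in controls and 9.74%, 10.3% and 9.88% with 6-shogaol. For both, every treated library lay below every control, replicate 1 included.

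For MT-ND4, MT-ND5 and MT-ND6 the share in every treated library was above that in every control. MT-ND5 took 7.13%, 7.35% and 7.62% of the counts of the 12 mRNAs in controls and 8.89%, 8.58% and 7.91% with 6-shogaol, and MT-ND4 took 12.8%, 12.8% and 13.2% and 13.96%, 14.15% and 15.45%. MT-ND6 took 2.34%, 2.60% and 2.53% in controls and 2.91%, 3.08% and 3.16% with 6-shogaol. MT-CYB, the last mRNA of the heavy strand, overlapped between groups, with 9.27%, 9.25% and 11.4% in controls and 10.1%, 8.52% and 8.29% with 6-shogaol. The other 7 shares, MT-CYB among them, overlapped between groups. Of all 13 mRNAs, MT-ND6 took 2.43% ± 0.126 in controls and 2.92% ± 0.228 with 6-shogaol (n = 3, two-sided exact permutation test, p = 0.1, the smallest possible, adjusted over 4 values 0.20). The MT-ND6 share has the strand limit given above. Shares of 1 total are tied to each other, and of the mRNAs only MT-ND6 and MT-ATP6 had their shares tested.

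**Figure D5:**
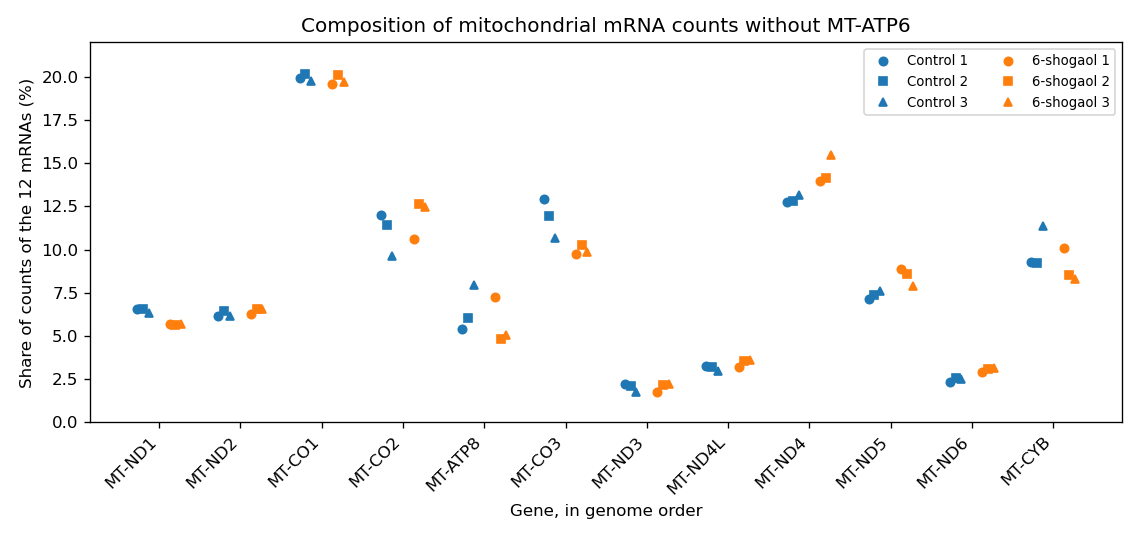
Share of the counts of 12 mitochondrial mRNAs (MT-ATP6 left out) taken by each gene in each library, in percent from 0, in genome order. The treated libraries lie below the controls for MT-ND1 and MT-CO3 and above them for MT-ND4, MT-ND5 and MT-ND6.

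Many members have near-identical copies in the nuclear genome, which can share reads with them. In GENCODE release 29, 46.7% of the 50-base words of MT-ATP6 occur letter for letter in an annotated nuclear transcript, against 49.5% for MT-CO1, 43.6% for MT-ND2, 30.6% for MT-CO3 and 0 for MT-ND3 and MT-ND4L. For words of 100 bases the values were 11.9%, 27.9%, 26.1% and 4.38% for the first 4. The length of the reads was not given in the sources used here. Of 408 genes named as copies of mitochondrial genes, 15 were tested. edgeR called 1 of them lower and 0 higher, with 3 lower and 0 higher at an unadjusted p under 0.05. DESeq2 called 2 lower and limma 1 lower. Over all genes tested, the shares lower were 1.71% in edgeR, 9.95% at the unadjusted threshold, 5.46% in DESeq2 and 2.51% in limma.

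The copy that was called was MTCO3P12 (chromosome 1, 634376 to 634922), which is identical to MT-CO3 at 537 of 547 aligned bases. It fell from 24.2 ± 1.16 to 14.8 ± 2.45 CPM (n = 3, log2 fold change -0.71, SE 0.13, edgeR adjusted p = 0.0409), the same direction as the value of MT-CO3. It was called in 1 of the 6 fits without 1 library, the one without 6-shogaol replicate 2. MTND1P23 (chromosome 1, 629062 to 629433), a partial copy of MT-ND1, had 96.9, 82.0 and 81.6 CPM in controls and 39.6, 59.5 and 60.0 CPM with 6-shogaol (-0.71, edgeR adjusted p = 0.0715), and was called without 6-shogaol replicate 1 (edgeR adjusted p = 0.0410). The abundant copies MTATP6P1, MTND2P28 and MTCO1P12 did not pass, at -0.05, -0.01 and -0.28 on the log2 scale. Reads from a mitochondrial RNA and from its copy cannot be told apart in these counts.

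Nuclear genes that act on the mitochondrial genome showed no called change in edgeR. Among 19 genes of mitochondrial transcription and DNA upkeep, such as the polymerase gene POLRMT and the packaging factor gene TFAM, 0 were called (3 higher and 0 lower at an unadjusted p under 0.05, 1 higher in DESeq2 and 1 higher in limma). Over all genes tested, 10.4% were higher and 9.95% lower at that unadjusted threshold. DESeq2 called 5.31% of the genes it tested higher and 5.46% lower, and limma 3.53% and 2.51%. The median log2 fold change of these 19 genes was 0.05. Among 36 tested genes of mitochondrial RNA cutting, modification and decay, edgeR also called 0 (2 higher and 5 lower at an unadjusted p under 0.05, 1 higher and 1 lower in DESeq2, 1 higher in limma), with a median of 0.00.

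The nuclear-encoded partners of the mitochondrial subunits were likewise not called. Over all genes tested, 10.4% were higher and 9.95% lower at an unadjusted p under 0.05, and DESeq2 called 5.31% and 5.46% of those it tested. Of 74 subunit genes of complexes I, III and IV and ATP synthase, edgeR called 0, with 4 higher and 4 lower at an unadjusted p under 0.05, 1 higher and 1 lower in DESeq2, and 0 in limma. Their medians were -0.10 for complex I, -0.01 for complex III, -0.01 for complex IV and -0.04 for ATP synthase, beside -0.05, -0.35, -0.20 and 0.19 for the mitochondrially encoded mRNAs of the same complexes. The last of these is the middle of MT-ATP8 and MT-ATP6 and carries the value of 1 library, replicate 1 of the treated group. The medians of complexes I and IV also rested in part on that library. Without it MT-ND1 stayed below 0, at -0.27, while the other complex I mRNAs lay above 0, at 0.00073 to 0.26. MT-CO1, MT-CO2 and MT-CO3 were then at -0.075, 0.11 and -0.31, and MT-CYB of complex III at -0.31. No difference between the nuclear and mitochondrial subunits was tested.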

How the data were processed

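RNA-seq of 3 control and 3 6-shogaol libraries was analysed, with groups and replicate numbers from the sample titles. The authors deposited raw counts per gene and, per the file headers, FPKM values, with a copy of the counts that differed in 0 values. The builds named per the submitters' processing notes, GRCm38 and mm10, are mouse builds, but all 60612 identifiers are human, and the 37 members have the positions of GENCODE release 29 (GRCh38). The sources used here give no aligner, counter, strand setting or read length. Library totals were 43516840 to 60018999 counts, and the totals that the FPKM values imply were larger in every library.

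The test over genes was edgeR 4.0.16 in R 4.3.3 (filterByExpr, TMM, glmQLFit and glmQLFTest, Benjamini-Hochberg over 19279 genes, threshold 0.05). CPM are TMM-scaled, and a standard error is the log2 fold change over the square root of F. Shares were compared by exact permutation tests over libraries. No library was a copy of another, since replicate counts had a chi-square of 33.1 to 69.6 per degree of freedom. Alternatives were RLE, upper-quartile and nuclear-gene scaling, DESeq2 1.42.0, other filters, a replicate block, each library left out, and limma 3.58.1 on log2(FPKM + 1) or log2(FPKM + 0.1). Named were all members, called genes of the nuclear lists, and the 4 most abundant and any called nuclear copies. The members and lists were chosen with earlier results of these data known. edgeR was tested on simulated data.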

Additional observations from a re-analysis of the deposited data

How the results depend on the processing

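The count of members called lower was 2 with all libraries in edgeR and with RLE, upper-quartile or nuclear-gene scaling. It was 3 with a minimum of 1 CPM, 3, 3 and 2 in the limma fits, 9 in DESeq2, 1 with no filter and 0 with the replicate block, and it ran from 0 to 1 in the 6 fits without 1 library. The share of all genes called lower also varied. It was 1.7% to 1.85% in the settings with 2 members called in edgeR. In the order of the others it was 2.94%, 2.51%, 2.39%, 0.369%, 5.46%, 0.609% and 0.0%, and 0.27% to 2.67% without 1 library. MT-TW was called in 11 of 16 alternatives (log2 fold change -0.85 to -0.71) and MT-TV in 8 of 16 (-0.62 to -0.50). Replicate numbers did not pair the libraries (correlations of same-numbered deviations -0.05, 0.05 and -0.04, and not every library was nearest its own number), and with the block edgeR called 3 genes higher and 0 lower over the whole table. Depth is not limiting for the mRNAs, while the thinnest tRNA value rests on 40 counts.

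Uncalled values near 0 changed sign. MT-ND5 was -0.0015 with upper-quartile scaling, and in limma MT-TC was 0.0191 at either pseudocount and with no filter, and MTND2P28 0.0029. Without 1 library the log2 fold change ran from -0.18 to 0.034 for MT-RNR1, -0.18 to 0.069 for MT-RNR2, -0.24 to 0.00073 for MT-ND2, -0.21 to 0.11 for MT-CO2, -0.31 to 0.020 for MT-ND3, -0.16 to 0.10 for MT-ND4L, -0.091 to 0.12 for MT-ND4 and -0.10 to 0.096 for MT-ND5. It ran from -0.069 to 0.26 for MT-TA, -0.078 to 0.19 for MT-TN, -0.071 to 0.034 for MT-TC, -0.035 to 0.42 for MT-TK, -0.084 to 0.16 for MT-TL2, -0.22 to 0.067 for MT-TE, -0.14 to 0.055 for MT-TT, -0.26 to 0.00032 for MT-TP, -0.22 to 0.16 for MTATP6P1 and -0.15 to 0.16 for MTND2P28. The 4 differences in shares kept their direction without any 1 library and with FPKM, where that of all mitochondrial genes was -2.32 points in place of -0.815. The cause of these differences was not tested.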
